A study of Mus musculus with 4 samples.

Results

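Necroptosis, pyroptosis and inflammasome signalling were examined through 10 genes, taken as the rows of the deposited table whose Entrez identifiers map to the mouse symbols Ripk3, Mlkl, Casp1, Casp4, Casp8, Gsdmd, Nlrp3, Pycard, Il1b and Il18. All 10 were found among the 27179 genes of the table, and all 10 passed the filter on low values, a mean normalized read count of at least 10 over the 4 libraries. The study sequenced mRNA of the kidney medulla, the inner zone of the kidney, where loops of Henle and collecting ducts concentrate the urine, from mice at postnatal day 14 on a mixed C57BL/6 background. The mutant group, Actr3-fl/fl*Cdh16-Cre and also labelled Actr3 KO, had 2 libraries, and the wild-type control group, labelled Actr3 WT, had 2. Actr3 is the gene of Arp3, part of the branched-actin nucleator Arp2/3. The Cre driver is Cdh16, a cadherin gene of kidney tubule epithelium, so macrophages and vessel cells are not its intended target. The labels do not say whether the controls carry a floxed allele or Cre.

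Actr3 itself (Entrez 74117) read 12587 and 12480 in the libraries labelled KO, against 8065 and 7275 in those labelled WT, a 1.63-fold higher mean (normalized read counts, limma adjusted p = 0.000494). A value for the whole gene misses the loss of single exons, so these values do not check the labels. The groups are therefore called KO-labelled and WT-labelled, and all directions rest on these names. The libraries held 36482238 to 40784436 reads, and 18972 to 19249 genes were detected in each. The defining markers of medullary tubule, Slc12a1, Umod, Aqp2 and Aqp3, were present in every library, and apart from Umod they were lower in the KO-labelled ones. Cdh16 had 41457 and 37685 in KO-labelled libraries against 84350 and 99754 in the WT-labelled ones. In bulk tissue, fewer cells of a type and less RNA per cell cannot be told apart.

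Necroptosis is a lytic death in which the kinase RIPK3 phosphorylates MLKL, which then permeabilizes the plasma membrane. Caspase-8 holds it back by cleaving RIPK1 and RIPK3. In the canonical inflammasome a sensor such as NLRP3 recruits the adaptor ASC, encoded by Pycard, and activates caspase-1, which matures IL-1β and IL-18 and cleaves gasdermin D into a pore-forming fragment, the step that defines pyroptosis. Mouse Casp4 encodes the protein known as caspase-11, which senses cytosolic lipopolysaccharide and cleaves gasdermin D directly. All of these proteins are controlled by cleavage, phosphorylation or assembly, so transcript counts do not report their activity. In the kidney the pathways are studied mainly in injured tubules and in the phagocytes around them.

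Coordinates are those of the whole gene, exons and introns, in RefSeq on GRCm38. The genes lie on 8 chromosomes, and Casp1 and Casp4 stand side by side on chromosome 9 with Casp12 as the next gene. Upstream sequence is shown for this neighbouring caspase pair and for Ripk3, all called higher. RefSeq promoters on GRCm38.p6 were matched for 9 of the 10 genes, all but Gsdmd. Each sequence shown is the 250 bases before the first listed start, 5′ to 3′ on the gene's strand, and capitals mark a match to the κB-type motif, GGG and TTTCC with any 2 bases between them, or to its reverse complement.
Casp4, chr9:5308599-5308848, plus strand: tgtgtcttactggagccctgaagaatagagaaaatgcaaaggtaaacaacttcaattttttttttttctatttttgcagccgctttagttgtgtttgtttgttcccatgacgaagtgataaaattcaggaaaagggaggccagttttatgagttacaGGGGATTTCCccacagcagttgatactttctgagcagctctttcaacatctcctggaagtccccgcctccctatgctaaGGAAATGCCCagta
Casp1, chr9:5298267-5298516, plus strand: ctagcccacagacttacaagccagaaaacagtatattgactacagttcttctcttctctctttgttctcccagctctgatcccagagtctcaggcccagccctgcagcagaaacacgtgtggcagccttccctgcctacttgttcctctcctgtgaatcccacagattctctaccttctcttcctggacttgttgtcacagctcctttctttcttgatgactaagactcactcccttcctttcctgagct
Ripk3, chr14:55788858-55789107, minus strand: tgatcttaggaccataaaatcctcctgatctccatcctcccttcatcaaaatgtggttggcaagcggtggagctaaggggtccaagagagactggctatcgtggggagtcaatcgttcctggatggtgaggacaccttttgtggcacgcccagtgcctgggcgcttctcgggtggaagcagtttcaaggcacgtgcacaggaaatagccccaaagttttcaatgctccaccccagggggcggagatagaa
For Mlkl, Casp8 and Nlrp3 the first listed start lies inside the span of the gene, and for Il1b the window reaches into it, so those windows do not cover the outermost promoter. The window searched ran on to 50 bases after the start, on both strands. The κB-type motif was found in 1 of the 9 windows, that of Casp4, which held it with its first bases 93 and 14 bases before the start. Among 27025 promoters of the same length 1.62% held it. The tandem motif of GAAA and GAAA with any 2 bases between them, the AP-1-type TGANTCA and the STAT-type TTCNNNGAA, which can overlap each other, were found in 0 of the 9 windows, against 3.49%, 7.93% and 8.47% of all promoters. These are matches of letters in a short window.

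Of the 10 genes, 9 rose in the KO-labelled medulla, 0 fell and 1, Mlkl, did not pass the threshold (limma on log2(value + 1), Benjamini-Hochberg adjusted p under 0.05 over 16253 genes). Among all tested genes 26.3% were called higher and 24.9% lower. In the same 9 genes both KO-labelled values lay above both WT-labelled values, which was so for 39.8% of tested genes, while 38.7% had both below. The median log2 difference of the 10 genes was 1.35, against 0.0029 over all tested genes, each difference taken as KO-labelled minus WT-labelled. Of the 10, 6 were called with a log2 difference over 1, against 10.7% of tested genes.

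**Figure D1:**
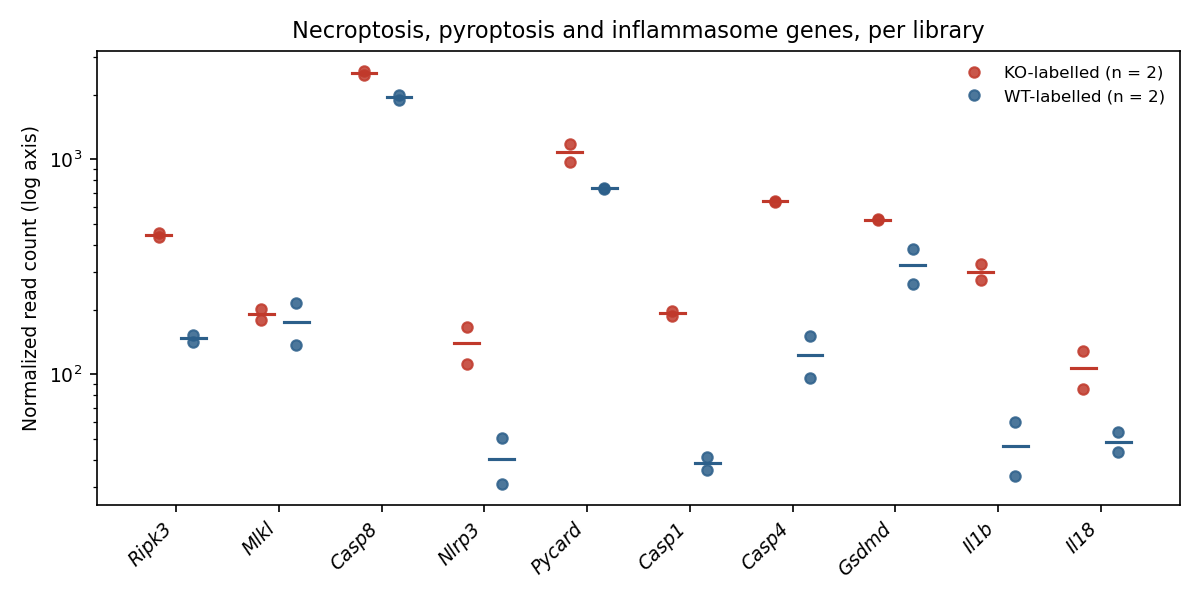
Normalized read count (log axis) of each of the 10 genes in the 2 KO-labelled (red) and 2 WT-labelled (blue) libraries; points are libraries and bars are group means. The groups are separate for every gene but Mlkl, whose WT-labelled values of 215.7 and 136.2 enclose both KO-labelled values.

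Of the necroptosis kinase gene and the gene of its substrate, the first rose and the other was not called. Ripk3 (Entrez 56532, chromosome 14, 55784995 to 55788857, minus strand) encodes the necroptosis kinase. It had normalized counts of 454.8 and 435.3 in KO-labelled libraries, against 152.7 and 141.1 in the WT-labelled ones. Its replicates were close and the groups far apart. The means were 445 ± 13.8 in KO-labelled and 147 ± 8.15 in WT-labelled libraries (SD, n = 2 each), a 3.03-fold rise (log2 difference 1.59, SE 0.159, limma adjusted p = 0.000267). Mlkl (Entrez 74568, chromosome 8, 111311255 to 111338479, minus strand) encodes the executioner that RIPK3 phosphorylates. It read 179.1 and 200.7 in the KO-labelled libraries and 215.7 and 136.2 in the WT-labelled ones. The groups overlapped: the means were 189.9 ± 15.2 in KO-labelled and 175.9 ± 56.2 in WT-labelled libraries (SD, n = 2 each). The log2 difference of 0.14 had a 95% interval of -0.45 to 0.74 (limma adjusted p = 0.657). That interval excludes a rise of the size of Ripk3's but not a smaller change in either direction, and without WT replicate 2 the sign turned (log2 difference -0.19).

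Casp8 (Entrez 12370, chromosome 1, 58795233 to 58847503, plus strand), whose product restrains necroptosis and starts receptor-driven apoptosis, had the highest level per length of the 9 genes compared in both groups. It read 2572 and 2480 in KO-labelled libraries against 2003 and 1885 in the WT-labelled ones. The groups did not overlap, but the rise was the smallest of the 9 called, 1.30-fold (log2 difference 0.38, SE 0.083, limma adjusted p = 0.00848). Without KO replicate 1 the call was lost (adjusted p = 0.0557).

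Of the inflammasome components, the sensor gene rose more than the adaptor gene in its point estimate. Nlrp3 (Entrez 216799, chromosome 11, 59541569 to 59566955, plus strand) had counts of 111.5 and 166.8 in KO-labelled libraries against 50.2 and 30.8 in the WT-labelled ones, a 3.43-fold higher mean. Replicates of both groups were uneven, and the lowest KO-labelled value was still above the highest WT-labelled one (log2 difference 1.77, SE 0.339, limma adjusted p = 0.00476). Pycard (Entrez 66824, chromosome 7, 127991373 to 127993867, minus strand) read 1184 and 977.9 in KO-labelled against 731.8 and 735.5 in WT-labelled libraries, 1.47-fold higher (log2 difference 0.55, SE 0.124, limma adjusted p = 0.00928). The 95% intervals, 0.96 to 2.57 for Nlrp3 and 0.26 to 0.85 for Pycard, did not overlap, although the difference between the genes was not tested. The call of Pycard was lost without KO replicate 1 (adjusted p = 0.0659).

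The inflammatory caspases were among the larger rises. Casp1 (Entrez 12362, chromosome 9, 5298517 to 5307281, plus strand) is the inflammasome protease gene. It had 187.7 and 197.8 in KO-labelled libraries against 41.4 and 35.8 in the WT-labelled ones. Replicates were close in both groups and the means differed 5.0-fold (log2 difference 2.29, SE 0.234, limma adjusted p = 0.000291). Casp4 (Entrez 12363, chromosome 9, 5308849 to 5336791, plus strand) had 637.1 and 643.5 in KO-labelled against 150.7 and 96.4 in WT-labelled libraries, a 5.18-fold rise (log2 difference 2.40, SE 0.228, limma adjusted p = 0.000217). Casp12, their neighbour, an inflammatory-type caspase linked to endoplasmic reticulum stress in mice, had 1981 and 2127 in KO-labelled against 252.1 and 136.2 in WT-labelled libraries, 10.6-fold higher (log2 difference 3.46, limma adjusted p = 8.48e-05). All genes of this caspase cluster were thus higher, and in each of them the KO-labelled replicates lay closer together on the log2 scale than the WT-labelled ones.

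**Figure D2:**
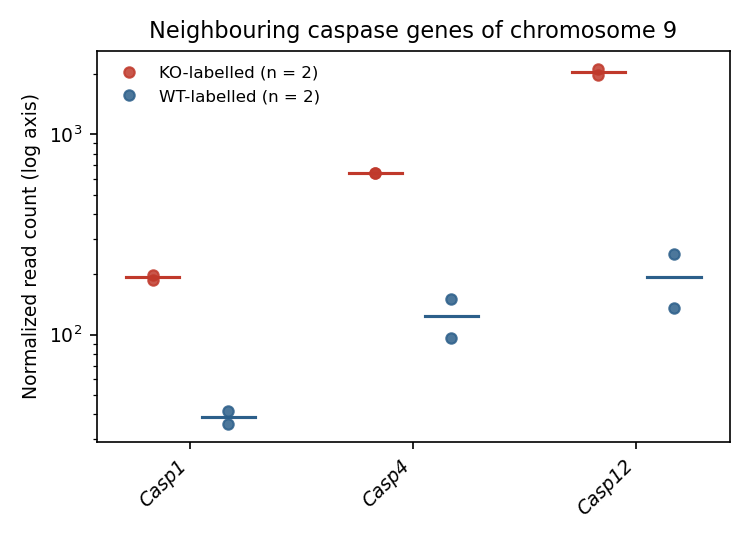
Normalized read count (log axis) of the adjacent genes Casp1, Casp4 and Casp12 in the KO-labelled (red, n = 2) and WT-labelled (blue, n = 2) libraries; bars are group means. The red points lie above the blue ones for each gene, with means 5.0-fold, 5.18-fold and 10.6-fold higher.

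Gsdmd (Entrez 69146, chromosome 15, 75862144 to 75867408, plus strand), the pyroptotic pore gene, followed with a smaller rise. It read 521.3 and 526.6 in KO-labelled libraries against 382.2 and 263.4 in the WT-labelled ones, a 1.62-fold difference in means (log2 difference 0.72, SE 0.194, limma adjusted p = 0.019). The KO-labelled values nearly coincided while the WT-labelled values were spread. The call was lost without KO replicate 1, KO replicate 2 or WT replicate 2 (adjusted p = 0.053, 0.0514 and 0.0703) and with no variance trend (0.0602).

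The cytokine genes differed in size of change. Il1b (Entrez 16176, chromosome 2, 129364569 to 129371164, minus strand), the largest rise among the 10, had 274.6 and 325.0 in KO-labelled libraries against 33.5 and 59.6 in the WT-labelled ones, 6.44-fold higher (log2 difference 2.71, SE 0.306, limma adjusted p = 0.000451). Il18 (Entrez 16173, chromosome 9, 50554700 to 50581841, plus strand) had 128.7 and 85.7 in KO-labelled against 43.3 and 53.7 in WT-labelled libraries, 2.21-fold higher (log2 difference 1.11, SE 0.299, limma adjusted p = 0.0192). Its KO-labelled replicates, with those of Nlrp3, were the least alike of the 10 genes, and the call was lost without KO replicate 1 or WT replicate 1 (adjusted p = 0.115 and 0.0894). Il18 shares its locus with Bco2 and Tex12 on the other strand, and the strand setting of the counting is not given. Bco2 had 56.8 and 28.3 in KO-labelled libraries against 37.4 and 53.7 in the WT-labelled ones, and Tex12 had 0 reads in all. The antisense gene Il1bos, which overlaps Il1b, had 0 to 4 reads per library. GENCODE also places Gm45712, Gm37760 and Gm45205 over Mlkl, Casp8 and Pycard.

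**Figure D3:**
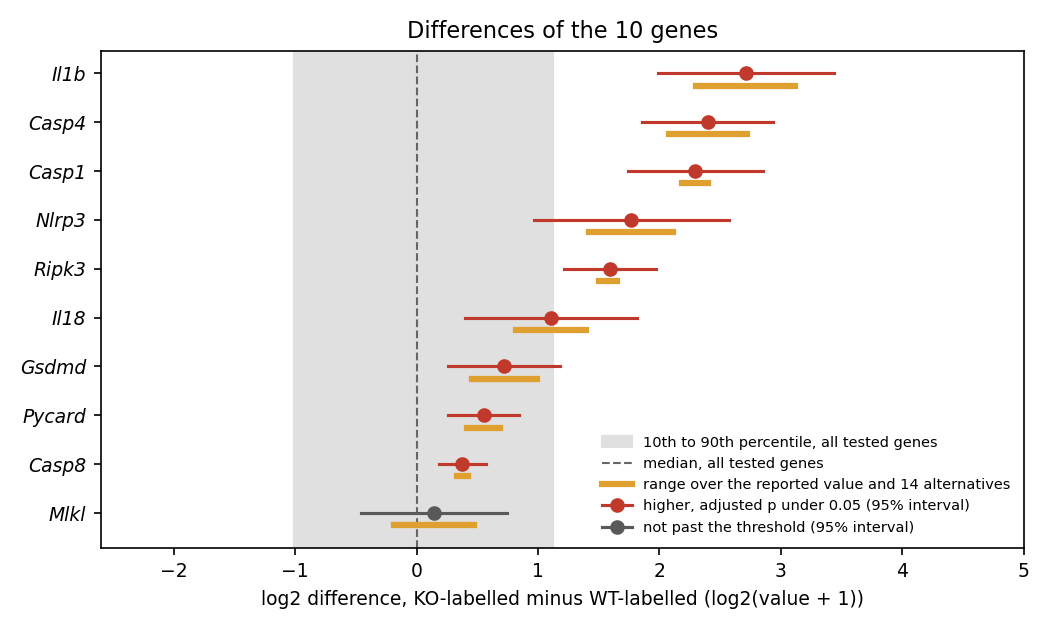
log2 difference (KO-labelled minus WT-labelled, log2(value + 1)) of each gene with its 95% limma interval; red genes were called higher and the grey one was not. Orange bars span the values under all 14 alternatives and the reported one, the dashed line is the median of all tested genes and the grey band their 10th to 90th percentile, -1.01 to 1.12; the point estimates of Il1b, Casp4, Casp1, Nlrp3 and Ripk3 lie beyond the band.

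Per kilobase of annotated exon (GENCODE M21), which allows genes to be compared, the order of levels differed between groups. Pycard was left out, since its GENCODE transcript is longer than its RefSeq span. In the KO-labelled libraries Casp8 led with 873 normalized counts per kb, followed by Casp4 (446), Gsdmd (292), Ripk3 (226), Il1b (221), Casp1 (129), Il18 (104), Mlkl (94.8) and Nlrp3 (34.3). In this order the ranges of Ripk3 and Il1b overlapped, as did those of Il18 and Mlkl. In the WT-labelled libraries the order was Casp8 (672), Gsdmd (180), Mlkl (87.8), Casp4 (86.1), Ripk3 (74.5), Il18 (47.0), Il1b (34.3), Casp1 (25.8) and Nlrp3 (9.99). There the ranges of Mlkl, Casp4 and Ripk3 all overlapped each other, so these genes cannot be ordered, and Il1b overlapped both Il18 and Casp1.

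Markers of infiltrating or resident phagocytes moved with these genes. The counts of called markers in this paragraph are to be set against the 26.3% higher and 24.9% lower of all tested genes. Of 22 macrophage and dendritic cell markers 20 rose and 1 fell, and their summed level was 92516 to 98593 in KO-labelled libraries against 23539 to 28673 in the WT-labelled ones, 3.66-fold higher. The complement gene C1qa, the lipopolysaccharide co-receptor gene Cd14 and the lysozyme gene Lyz2 rose 6.37-fold, 7.54-fold and 7.63-fold, while Mertk, an efferocytosis receptor gene, fell 1.76-fold, and none of the 22 was at 0. The folds of Il1b, Casp4 and Casp1 were above that of the summed markers, and those of the other members below it. The sum is weighted to abundant markers. The median log2 difference of the 22 markers was 2.54. Of the members only Il1b (2.71) was above this median, with Casp4 at 2.40 and Casp1 at 2.29. The summed level of 14 neutrophil markers was 867.7 to 978.9 in KO-labelled against 235.4 to 243.5 in WT-labelled libraries. Of these, 9 were below the filter, among them Ly6g and Elane, at 0 in both WT-labelled libraries, and 3 of the 5 tested were higher. Mmp9 alone had 529.9 and 575.6 in KO-labelled against 33.5 and 61.6 in WT-labelled libraries. S100a8 and S100a9 were not called (limma adjusted p = 0.0931 and 0.0686). The call of Csf3r was lost with quantile normalization (limma adjusted p = 0.0545). It was also lost without any 1 of the 4 libraries (log2 difference 0.52 to 0.73). Lymphocyte markers summed to 1122 to 1281 in KO-labelled against 465.2 to 543.7 in WT-labelled libraries, with 5 of 10 tested higher, 2 of 10 without KO replicate 1 or KO replicate 2 and 3 of 10 without WT replicate 2. All 16 tubular injury markers rose, with Lcn2 57.5-fold higher. In contrast, 16 of 16 endothelial, 14 of 16 proximal tubule, 13 of 16 intercalated cell, 13 of 16 thick ascending limb and 11 of 16 principal cell markers fell. The summed levels of these 5 lists were 2.80-fold, 2.55-fold, 2.34-fold, 2.40-fold and 2.37-fold lower. In the same lists 1 intercalated cell, 2 thick ascending limb and 1 principal cell marker were called higher. The principal cell marker is Krt18, which is also counted among the tubular injury markers. With all libraries, 1 thick ascending limb marker was called higher with edgeR, DESeq2, TMM factors, no filter on low values, no variance trend or a replicate block. The part of these cell types in the results for the 10 genes was not tested.

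Beyond the 10, 8 lists of the same pathways were read, and the counts below are limma calls at adjusted p under 0.05 to be set against the 26.3% higher and 24.9% lower of all tested genes.

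Upstream of RIPK3, 7 of 17 tested necroptosis inducers and kinases rose and 2 fell. Tnf, the cytokine that starts the pathway through its receptor, had 67.6 and 59.4 in KO-labelled libraries against 4.92 and 4.97 in the WT-labelled ones, 12.8-fold higher (limma adjusted p = 0.000421). Its receptor gene Tnfrsf1a rose 1.53-fold and the endotoxin receptor gene Tlr4 2.18-fold. Ripk1, the partner kinase of RIPK3, rose 1.19-fold (limma adjusted p = 0.042). The Ripk1 call was lost without KO replicate 1, KO replicate 2 or WT replicate 2 (log2 difference 0.28, 0.22 and 0.19). With all libraries it was also lost by DESeq2 (adjusted p = 0.0541) and by limma with no filter on low values (adjusted p = 0.0568). Zbp1, the nucleic acid sensor that engages RIPK3 directly, read 222.0 and 171.5 in KO-labelled libraries against 161.5 and 29.8 in the WT-labelled ones. It was not called (log2 difference 1.47, adjusted p = 0.112), but it was without WT replicate 1 (log2 difference 2.67, adjusted p = 0.00233). Tnfsf10, the death ligand TRAIL, fell 1.69-fold and the phosphatase gene Ppm1b 1.21-fold, and the Ppm1b call was lost without any 1 of the 4 libraries (adjusted p of 0.0589 to 0.13). Without KO replicate 1 the list had 4 rises, and each left-out library reduced its falls to 1.

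Of 18 regulators that act between the receptors and RIPK3, 3 rose and 4 fell. Most of them restrain necroptosis, but the list also holds Cyld and Spata2, which favour it, and Hsp90aa1 and Cdc37, the chaperone pair that RIPK3 needs. Birc3, a ubiquitin ligase that protects against TNF-driven death, had 2115 and 1975 in KO-labelled libraries against 502.3 and 446.3 in the WT-labelled ones, 4.31-fold higher (limma adjusted p = 2.13e-05). Tnfaip3, encoding the ubiquitin-editing enzyme A20, rose 2.18-fold, and Cdc37 1.29-fold. Cflar, which encodes the caspase-8 partner cFLIP, fell 1.31-fold, Xiap 1.41-fold and Ikbkg 1.24-fold. The calls of Cdc37 and Cflar were lost without KO replicate 1 or WT replicate 1 (adjusted p = 0.0598 and 0.0501 for Cdc37, 0.086 and 0.0711 for Cflar). That of Ikbkg was lost without KO replicate 1, KO replicate 2 or WT replicate 1 (0.0595, 0.0988 and 0.0821). The falls then numbered 2, 2 and 1.

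Of 15 tested genes in a list of other inflammasome sensors and related genes, 8 rose and 2 fell. The list is not of sensors alone. It also holds the adaptor gene Card9, which was called higher (log2 difference 0.98, limma adjusted p = 0.0147), and Nod1, Nod2, Nlrx1, Nlrc3 and Nlrc5. Nlrc4, the sensor of bacterial flagellin and secretion systems, had 146.9 and 190.3 in KO-labelled libraries against 51.2 and 53.7 in the WT-labelled ones, 3.22-fold higher (limma adjusted p = 0.00144). Aim2, the cytosolic DNA sensor gene, read 100.8 and 78.2 in KO-labelled against 37.4 and 29.8 in WT-labelled libraries, 2.66-fold higher (adjusted p = 0.00742). Nlrp10 rose 14.6-fold from a low level and Naip6 3.46-fold, the last a member of a near-identical gene family whose reads can be split. Nlrc3, an inhibitory NLR gene, fell 4.10-fold, with 62.2 and 76.3 in KO-labelled against 268.9 and 299.2 in WT-labelled libraries. Nlrp6, a sensor gene of epithelia, had 84.7 and 166.8 in KO-labelled against 280.7 and 321.1 in WT-labelled libraries, 2.39-fold lower (adjusted p = 0.0116), and did not pass without WT replicate 2 (0.0694).

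Among genes of inflammasome priming and activation 11 of 21 rose and 1 fell. P2rx7, the ATP-gated channel whose opening lets potassium out and activates NLRP3, had 1107 and 1290 in KO-labelled libraries against 344.7 and 346.9 in the WT-labelled ones, 3.47-fold higher (limma adjusted p = 6.41e-05). The kinase gene Syk rose 3.51-fold and Ctsb, a lysosomal protease, 2.02-fold. Nek7, the kinase that bridges NLRP3 subunits, had 5833 and 5829 in KO-labelled against 6022 and 5633 in WT-labelled libraries, with a 95% interval of its log2 difference from -0.18 to 0.18. Txnip, a thioredoxin inhibitor reported to bind NLRP3, fell 1.34-fold (adjusted p = 0.0382), a call lost without KO replicate 1, KO replicate 2 or WT replicate 1 (0.0895, 0.129 and 0.151). The falls numbered 5 without WT replicate 2. Some interferon-inducible genes were uneven within the WT-labelled group, and Gbp2 and Nlrc5 are named after their values were seen. Gbp2, a guanylate-binding protein gene, had 1599 and 1358 in KO-labelled libraries against 2353 in WT replicate 1 and 396.6 in WT replicate 2, and its log2 difference was 1.89 without WT replicate 1 but -0.67 without WT replicate 2. Nlrc5, the class I antigen presentation regulator, read 195.2 and 220.5 in KO-labelled against 441.3 and 68.6 in WT-labelled libraries, with log2 differences of 1.58 and -1.08 without each of the WT-labelled libraries. Of the 10 genes, Nlrp3, Mlkl, Casp4 and Gsdmd were also higher in WT replicate 1 than in WT replicate 2, by 0.69, 0.66, 0.64 and 0.54 on the log2 scale, and Casp1, Ripk3 and Casp8 by 0.20, 0.11 and 0.088. Il1b, Il18 and Pycard went the other way, with -0.81, -0.30 and -0.0073. The part of this unevenness in the results of the 10 genes was not tested.

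Of 11 tested inflammasome brakes 2 rose, Tnfaip3 and the protease inhibitor gene Serpinb1a (1.95-fold), and 3 fell, among them Lpin2 and Becn1 (2.02-fold and 1.49-fold). Without KO replicate 1 the call of Serpinb1a was lost (adjusted p = 0.0549).

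Downstream, the tested gasdermin genes other than Gsdmd were lower or not called. Of 15 tested genes of gasdermins and membrane rupture 3 rose and 3 fell. Gsdme, another pore-forming gasdermin gene, had 118.0 and 182.8 in KO-labelled libraries against 164.5 and 139.2 in the WT-labelled ones (log2 difference -0.04, 95% interval -0.66 to 0.57). Gsdmc2 and Gsdmc3, near-identical paralogs, fell 5.77-fold and 5.55-fold, Gsdmc2 to 225.2 and 66.9 in KO-labelled libraries against 852.0 and 834.0 in the WT-labelled ones. Ninj1, which ruptures the membrane after pore formation, read 2533 and 1972 in KO-labelled against 2693 and 3059 in WT-labelled libraries (log2 difference -0.36, adjusted p = 0.0572) and was called lower without KO replicate 1 (log2 difference -0.54, adjusted p = 0.0123) and, with all libraries, by DESeq2 (log2 difference -0.36, adjusted p = 0.041). The phospholipid-binding annexin genes Anxa1 and Anxa2 rose 3.40-fold and 1.41-fold, and Chmp4b, of the ESCRT machinery that repairs membrane, rose 1.32-fold, which was not called without KO replicate 1 (adjusted p = 0.0605). Zdhhc5, a palmitoyltransferase gene, fell 1.15-fold and lost its call without any 1 of the 4 libraries (0.1 to 0.211). Of 6 other tested caspase genes, Casp12 and Casp2 (1.35-fold) rose.

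**Figure D4:**
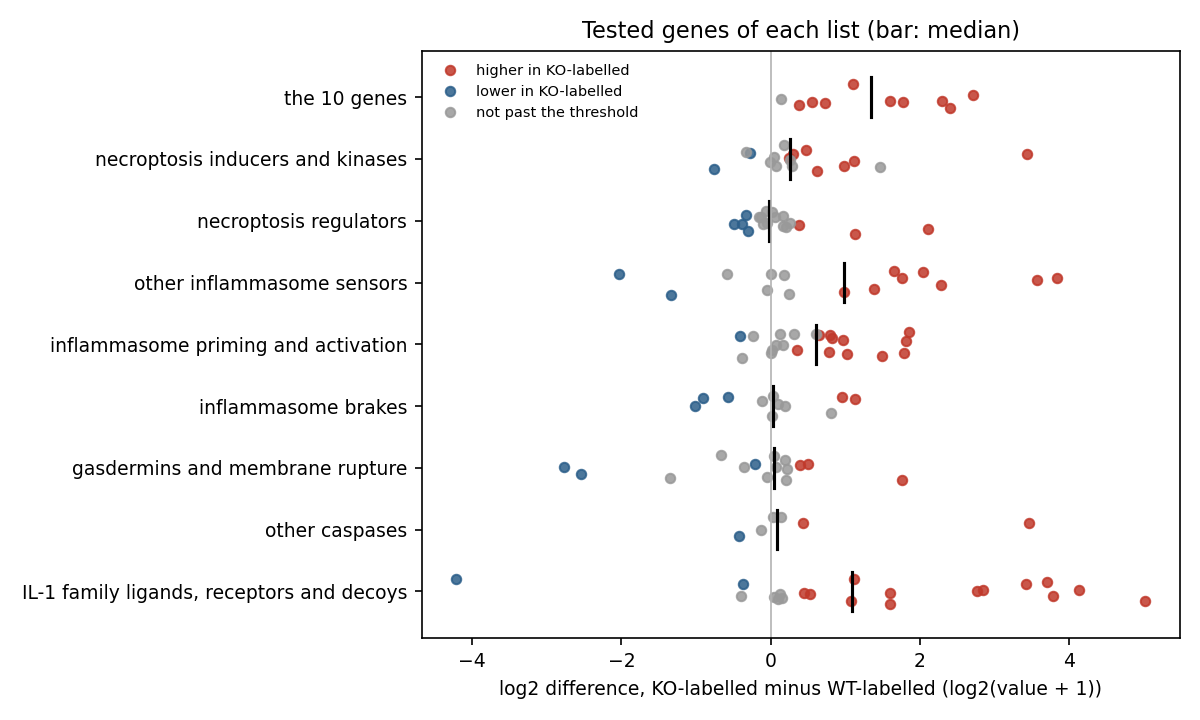
log2 difference (KO-labelled minus WT-labelled, log2(value + 1)) of every tested gene of the 10-gene set and of the 8 further lists; red genes were called higher, blue lower and grey neither, and bars are medians. The medians are 1.35 for the 10 genes, 1.09 for the IL-1 family, 0.98 for the list of other sensors and related genes and 0.61 for priming and activation. They lie between -0.02 and 0.26 for the other lists.

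Several receptor and antagonist genes of the cytokines had larger fold changes than Il1b and Il18, although differences between genes were not tested. Of 20 tested IL-1 family genes 13 rose and 2 fell. Il1rn, the receptor antagonist gene, had 547.0 and 489.0 in KO-labelled libraries against 37.4 and 35.8 in the WT-labelled ones, 14.2-fold higher (log2 difference 3.78, SE 0.198, limma adjusted p = 2.13e-05). Il1a rose 7.47-fold, with 40.8 and 48.0 in KO-labelled against 3.94 and 7.95 in WT-labelled libraries. Il33, an alarmin gene, rose 2.25-fold with uneven values of 424.7 and 717.0 in KO-labelled against 259.0 and 248.5 in WT-labelled libraries. The signalling receptor gene Il1r1 had 3974 and 4003 in KO-labelled against 1300 and 1330 in WT-labelled libraries, 3.03-fold higher.

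On the IL-18 side, Il18r1, the ligand-binding receptor chain gene, had 2333 and 1846 in KO-labelled libraries against 234.4 and 160.0 in the WT-labelled ones, 10.6-fold higher (log2 difference 3.41, SE 0.206, limma adjusted p = 3.56e-05). Il18bp, the soluble decoy gene, read 164.1 and 165.8 in KO-labelled against 276.8 and 172.0 in WT-labelled libraries and was not called (log2 difference -0.40, adjusted p = 0.221), though it was without WT replicate 2 (log2 difference -0.74, adjusted p = 0.0446). Il18rap, Il1r2, Il1rl1 and Il1rap were chosen after their values were seen. Il18rap, the accessory chain, rose 19.8-fold and the IL-1 decoy receptor gene Il1r2 14.4-fold, and Il1rl1, the IL-33 receptor, 7.24-fold, while Il1rap, the IL-1 co-receptor chain, had a log2 difference of 0.13 (adjusted p = 0.339). Il1f5, the antagonist of the IL-36 receptor, fell 20.7-fold, with 5.36 and 8.48 in KO-labelled against 134.0 and 152.1 in WT-labelled libraries. Sigirr, an inhibitory receptor gene, fell 1.30-fold (adjusted p = 0.0316), a call lost without KO replicate 1, KO replicate 2 or WT replicate 2 (0.113, 0.0848 and 0.149).

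**Figure D5:**
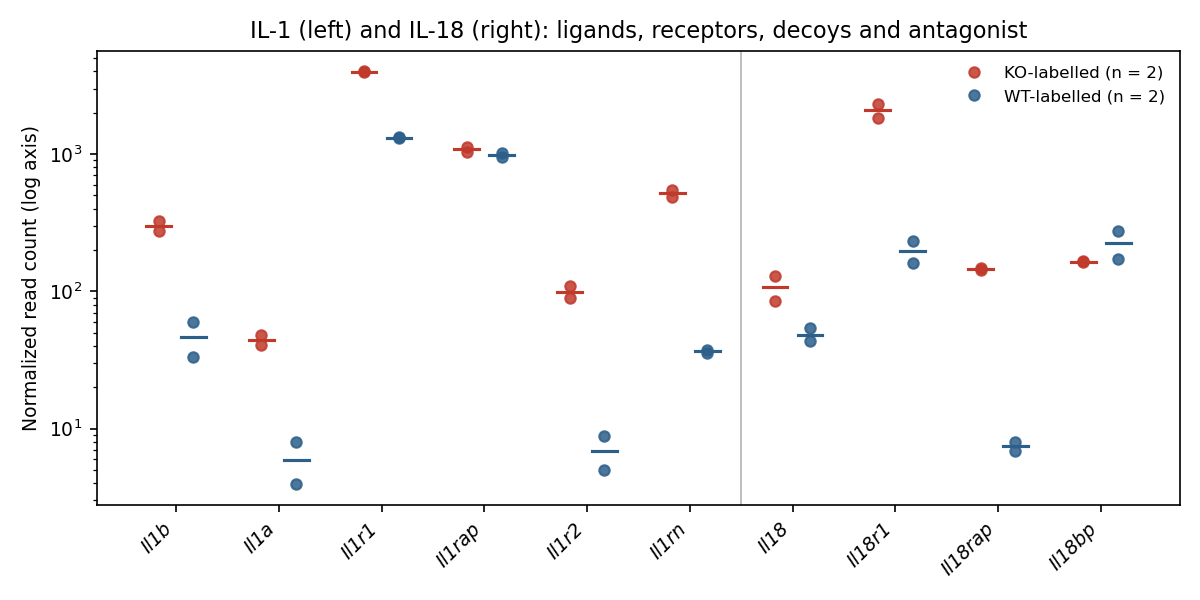
Normalized read count (log axis) of ligand, receptor, decoy and antagonist genes of IL-1 (left of the line) and IL-18 (right) in the KO-labelled (red, n = 2) and WT-labelled (blue, n = 2) libraries; bars are group means. Il1rn, Il1r2, Il18r1 and Il18rap are more than 10-fold higher in red, whereas Il1rap and Il18bp differ by less than 1.5-fold in their means.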

How the data were processed

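The data are mRNA sequencing of kidney medulla in 4 libraries, 2 per group, with groups and replicate numbers from the sample titles. The labels' protocols name 2 animals per group, taken as 1 per library. The limma p-values rest on the spread between these libraries, with each gene's variance moderated toward that of genes of similar level. The residual degrees of freedom were 2 per gene, and the median total was 6.96. Values of the deposited table are a signal, gene read counts that the authors scaled by a size factor; the scaling is inferred from the values, 100% of which are whole multiples of their column's smallest step within 0.001. Per the submitters' processing notes, the tools were DESeq2 2.11.40.7, featureCounts 2.0.1, HISAT2 2.2.1 and fastp 0.20.1, and the builds GRCm38 and mm10. Not given in the sources used here are the annotation and strand setting of the counting. Symbols came from a RefSeq table of GRCm38.p6, which matched 25275 of 27179 identifiers.

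Two-sided tests were made on log2(value + 1) by limma 3.58.1, with a trend of the variance on the mean, over 16253 genes whose mean was 10 or more. On this scale the change of a low gene is understated; a fold is the ratio of the group means. The fitting code was tested on simulated data. On the recovered reads, edgeR 4.0.16 called 4190 genes higher and 4113 lower, and DESeq2 1.42.0 4006 and 3817. Each value of the 10 genes rested on at least 31 reads. The 10 genes and the lists were chosen with earlier results of these data known. Genes named beside the 10 were up to 3 per direction and list by adjusted p, and 12 fixed names; some genes that this rule selects are not reported here. Replicates differed beyond sampling noise (chi-square per degree of freedom 16.9 between KO-labelled and 22.3 between WT-labelled libraries). Alternatives changed the pseudocount, the filter, the scaling, the variance trend or the tool, added a replicate block, or left out each library. Protein sequences were not used here.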

Additional observations from a re-analysis of the deposited data

How the results depend on the processing

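All 14 alternatives kept Ripk3, Casp1, Casp4, Nlrp3 and Il1b higher. The count of the 10 genes called higher was 9 as reported, 8 without a variance trend, 9 under the other settings with all libraries, and 5 to 8 when 1 library was left out, the lowest without KO replicate 1, where the spread of a lone library was taken to be that of the other group; none was called lower under any of them, or, as reported, at an unadjusted p under 0.05. Genes called lower in the 8 further lists and the apoptosis list together numbered 24, against 14 with no variance trend, which ended the calls of Ripk1, Ppm1b, Cdc37, Cflar, Ikbkg, Nlrp6, Txnip, Zdhhc5 and Sigirr, among others. Signs reversed only for genes that were not called in the report. When 1 library was left out, Mlkl ranged from -0.19 to 0.47, Gsdme from -0.36 to 0.27 and Nek7 from -0.047 to 0.050 on the log2 scale, and Nek7 was -0.0075 with TMM factors, -0.0082 with edgeR and -0.0034 with DESeq2. Gbp2 ranged from -0.67 to 1.89 and Nlrc5 from -1.08 to 1.58, and Nlrc5 was -0.30 with edgeR and with DESeq2. For 73 genes followed beside the 10, of 1018 values 942 kept direction and side of the threshold, 59 lost the call, 7 gained it and 10 reversed. Across genes the replicate 1 minus 2 differences of the groups correlated at -0.056, so the numbers were not taken as pairs. With the replicate block, 9 of the 10 genes were again called higher and 3810 genes in all against 4277; the block ended the calls of Ripk1, Ppm1b, Sigirr and Zdhhc5 and called Zbp1, and the cause of these changes was not tested. No scaling moved the median of all genes by more than 0.019. With 2 libraries a group, the interval of Mlkl allows a change of either sign.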

Other observations

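Of 23 tested apoptosis genes, which share upstream switches with necroptosis, 10 rose and 6 fell in the KO-labelled libraries, against 26.3% higher and 24.9% lower of all tested genes, so the share that fell was near that of all genes. Their median log2 difference was 0.30. Pmaip1, the pro-apoptotic BH3-only gene also called Noxa, had normalized counts of 2787 and 2764 in KO-labelled libraries against 288.6 and 307.1 in the WT-labelled ones, 9.32-fold higher (log2 difference 3.22, SE 0.102, limma adjusted p = 4.48e-06). The survival genes Mcl1 and Bcl2a1b rose 1.55-fold and 18.3-fold, the last with near-identical paralogs whose reads can be split. The mitochondrial death effector genes Cycs, cytochrome c, and Aifm1 fell 2.66-fold and 1.91-fold, and the survival gene Bcl2l2 1.55-fold.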
